A study of Mus musculus with 6 samples.

Results

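Gata6, the retinoic acid receptor genes Rara, Rarb and Rarg, the retinoid X receptor genes Rxra and Rxrb, and Pparg were followed in resting mouse peritoneal macrophages. They were chosen by symbol from the deposited gene table, in which all 7 were present among 48709 genes. The data are RNA-seq counts from 3 Zeb1 (+/-) libraries and 3 wild-type libraries. Both groups were untreated C57BL/6 mice aged 6 to 8 weeks, and each library came from a pool of 2 mice, so spread between libraries is spread between pools. Cells were washed from the peritoneal cavity and sorted as F4/80+ CD11b+. The labels call the Zeb1 (+/-) mice heterozygous and name neither the allele nor a driver that would confine it to macrophages. Zeb1 encodes a zinc-finger repressor that binds E-box sequences.

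Gata6 is a zinc-finger transcription factor that sets the identity of large cavity macrophages, the resident majority of these cells. Retinoic acid, which the peritoneal stroma and omentum make from vitamin A, maintains Gata6 in them. It acts through retinoic acid receptors (RARs), which bind DNA as dimers with retinoid X receptors (RXRs). PPAR gamma, encoded by Pparg, is a fatty acid sensor that also pairs with RXRs and is best known in macrophages for directing the alveolar type.

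The libraries held 17859872, 42165006 and 33650529 counts in Zeb1 (+/-) replicates 1, 2 and 3, and 33358835, 28073386 and 18574049 counts in wild-type replicates 1, 2 and 3. Zeb1 itself was at 3.85, 3.45 and 3.62 CPM (counts relative to the TMM-scaled library size) in Zeb1 (+/-) replicates 1, 2 and 3, against 5.44, 7.56 and 7.22 CPM in wild-type replicates 1, 2 and 3. Its log2 fold change was −0.89 ± 0.16 (SE; edgeR adjusted p = 0.0522), so the groups did not overlap but the threshold of 0.05 was missed. It passed without wild-type replicate 1 (adjusted p = 0.0317), and likewise with no low-count filter, with DESeq2 and with robust moderation, in a range of adjusted p from 0.00094 to 0.268 under 15 alternatives. Core macrophage markers summed to 45810 to 62280 CPM in Zeb1 (+/-) and 44820 to 62950 CPM in wild-type, most of it from the lysozyme gene Lyz2 at 35060 to 51780 CPM in Zeb1 (+/-) and 34210 to 52820 CPM in wild-type. Within this list the mannose receptor gene Mrc1 fell (log2 fold change −0.97, edgeR adjusted p = 0.00347). The gate marker gene Adgre1, which encodes F4/80, was at 0.26 without overlap (edgeR adjusted p = 0.111) and was higher by DESeq2, and the growth factor receptor gene Csf1r was at −0.15 without overlap (edgeR adjusted p = 0.346). Small structural RNAs summed to 43.6 to 45.5 CPM in all Zeb1 (+/-) libraries, and in wild-type replicates 1, 2 and 3 to 4.14, 8.69 and 42.2 CPM, so wild-type replicates 1 and 2 stood apart from the other 4 libraries. A fit with this class of the library as a term sets wild-type replicate 3 alone against the Zeb1 (+/-) libraries. B cell markers summed to 91.9 to 123 CPM in Zeb1 (+/-) and in wild-type replicates 1, 2 and 3 to 164, 149 and 304 CPM. Of 14 tested genes 12 did not overlap, all lower, where 10.3% of all tested genes were lower without overlap. All Zeb1 (+/-) sums lay below all wild-type sums, so a fit holding the B cell mean cannot fully separate B cell content from genotype. Markers of small cavity macrophages and monocytes summed to 4083 to 4159 CPM in Zeb1 (+/-) and 5753 to 6107 CPM in wild-type, with 9 of 13 tested genes lower by edgeR, a count of 4 without Zeb1 (+/-) replicate 1, 1 without Zeb1 (+/-) replicate 2, 0 without wild-type replicate 2, 1 when the model held the structural-RNA class and 0 when it held the B cell mean. Over all tested genes 0.433% (56 genes) were lower by edgeR in the main fit. The count over all tested genes was 15 without Zeb1 (+/-) replicate 1 and 5 without Zeb1 (+/-) replicate 2. It was 1 without wild-type replicate 2 and 0 with the B cell mean. Of the list, 6 were lower without Zeb1 (+/-) replicate 3, 6 without wild-type replicate 1 and 9 without wild-type replicate 3. Leaving out any Zeb1 (+/-) library or wild-type replicate 2, 14 genes of the list were tested. The median log2 fold change of the small cavity macrophage and monocyte markers was −0.52. It was −0.44 with the structural-RNA class, −0.59 with the B cell mean, and between −0.56 and −0.48 with 1 library left out. T and NK cell markers summed to 10.7 to 12.4 CPM in Zeb1 (+/-) and 17.1 to 20.0 CPM in wild-type. Nearly all of it came from Cd2, at 9.78 to 11.1 CPM in Zeb1 (+/-) and 15.4 to 17.5 CPM in wild-type. Cd3e averaged 0.194 CPM in each group. Cd3d averaged 0.185 CPM in Zeb1 (+/-) and 0.328 CPM in wild-type, and Trbc1 0.0547 CPM in Zeb1 (+/-) and 0.207 CPM in wild-type. The remaining genes of this list also averaged lower in Zeb1 (+/-), at similarly low levels. The part of these differences in the results below was not tested, and in sorted bulk RNA fewer cells of a type and less RNA per cell cannot be told apart.

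All 7 genes passed the low-count filter. In Zeb1 (+/-) macrophages Gata6 and Rarb sat above every wild-type library and Pparg below every wild-type library, while Rara, Rarg, Rxra and Rxrb overlapped. None of the 7 passed the edgeR quasi-likelihood test at an adjusted p of 0.05, where 0.587% of the 12940 tested genes did, 20 higher (0.155%) and 56 lower (0.433%). An unadjusted p under 0.05 was reached by 3 of the 7, against 14.6% of all tested genes. Groups did not overlap for 3 of the 7, against 19.9% of all tested genes, of which 9.6% were higher and 10.3% lower. DESeq2 called 2 of the 7 (Gata6 and Rarb, both higher), where it called 109 of the 12940 tested genes higher and 242 lower. Limma-voom called 0 of the 7, where it called 20 of all tested genes higher and 59 lower.

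**Figure D1:**
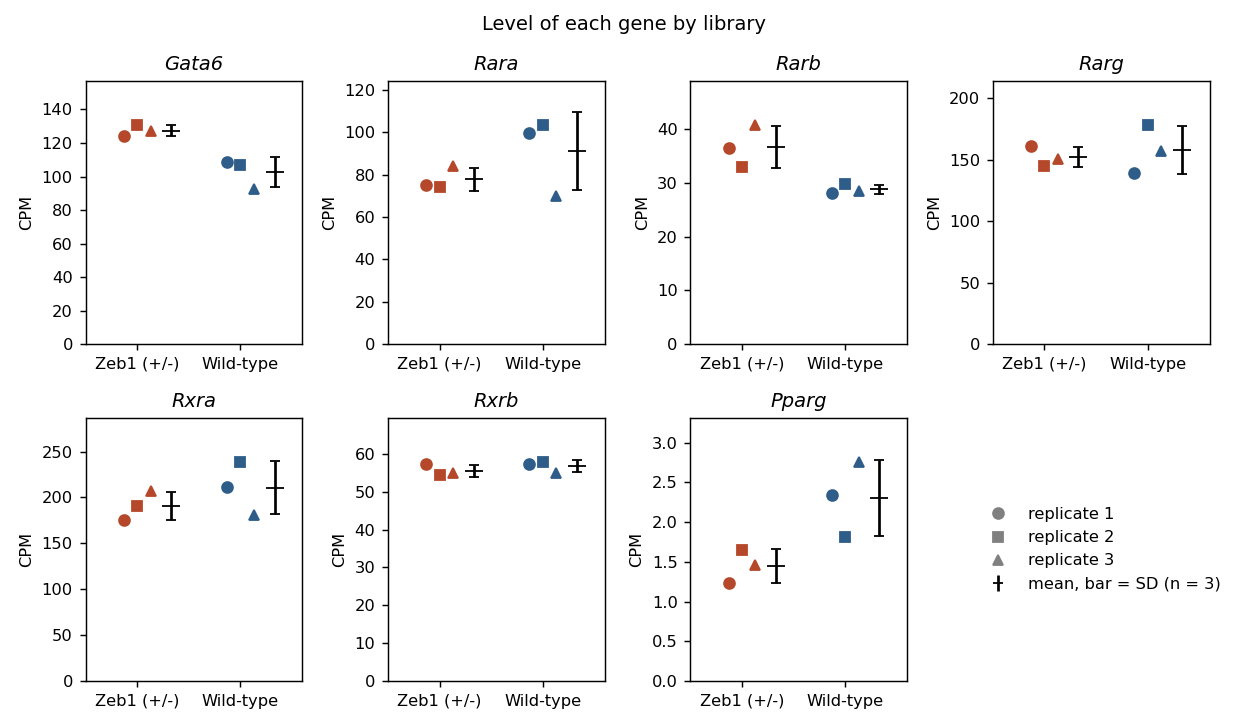
Level of each gene in CPM (linear axis from 0) in the 3 Zeb1 (+/-) and 3 wild-type libraries, with the mean and SD beside the points. Gata6 and Rarb show Zeb1 (+/-) points above all wild-type points, Pparg shows them below, and wild-type replicate 3 lies apart from the other wild-type libraries for Rara at 69.8 CPM.

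Gata6 was at 124, 131 and 127.3 CPM in Zeb1 (+/-) replicates 1, 2 and 3, against 109, 107 and 92.6 CPM in wild-type replicates 1, 2 and 3. The lowest Zeb1 (+/-) library lay above the highest wild-type library, and the wild-type spread came mostly from replicate 3. The means were 127.5 ± 3.31 CPM in Zeb1 (+/-) and 103 ± 8.84 CPM in wild-type (SD, n = 3 each). The log2 fold change was 0.31 ± 0.07 (SE; 95% confidence interval 0.14 to 0.48; edgeR adjusted p = 0.115). With no low-count filter (adjusted p = 0.0232) and with DESeq2 (adjusted p = 0.0207) it passed, while the log2 fold change was 0.46 with the structural-RNA class in the model (adjusted p = 0.136) and 0.14 with the mean of the B cell markers there (adjusted p = 0.588). Over 15 other settings its adjusted p ran from 0.0207 to 0.588.

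Gata6 (ENSMUSG00000005836.8 in the table) lies on chromosome 18 of GRCm38, from 11052064 to 11085635 on the plus strand, and its start is 5.46 Mb from that of Zeb1 on the same chromosome. Any difference in DNA linked to the targeted allele cannot be told apart from the genotype here. Of the 45 tested genes starting within 10 Mb of the Zeb1 start, 25 (55.6%) did not overlap between groups, 16 higher (Gata6 among them) and 9 lower (Zeb1 among them), against 19.9% of all tested genes. The median log2 fold change in the window was 0.04. In this window 2 genes were called, both higher: Cables1, a partner of cyclin-dependent kinases, and the scavenger receptor gene Colec12. Both stayed past the threshold with each library left out in turn, and Colec12 missed it with the B cell mean in the model (adjusted p = 0.0566, the highest over its other settings), where its log2 fold change was 0.89, beside 0.91 without that term.

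Within 1 Mb of the Gata6 start 9 genes were tested, Gata6 included. Cables1, which starts 787 kb further along, averaged 25.3 ± 0.764 CPM in Zeb1 (+/-) and 7.70 ± 0.989 CPM in wild-type, with a log2 fold change of 1.72. The lipase-like gene Abhd3, 345.3 kb before Gata6, averaged 7.20 CPM in Zeb1 (+/-) and 3.998 CPM in wild-type (log2 fold change 0.83, edgeR adjusted p = 0.0767). The antisense gene 1010001N08Rik, which starts beside Gata6 on the opposite strand, averaged 4.13 CPM in Zeb1 (+/-) and 2.53 CPM in wild-type, a log2 fold change of 0.71 (edgeR adjusted p = 0.132). Exons of this antisense gene cover 1.43% of the exonic bases of Gata6, and whether counting used strand is not given in the sources used here. The other neighbours lay on both sides of 0. Rbbp8, a DNA repair gene, had a log2 fold change of −0.36 and the spliceosome gene Snrpd1 one of 0.27. The cohesin acetyltransferase gene Esco1 was at −0.14, the ubiquitin ligase gene Mib1 at 0.06 and the kinase gene Rock1 at −0.0042, all on the same scale. Of these 9 genes Cables1 alone passed the threshold. Groups did not overlap for Cables1, Abhd3, 1010001N08Rik, Snrpd1 and Gata6, all higher, nor for Rbbp8 and Esco1, both lower. Those of Mib1 and Rock1 overlapped. Over all tested genes 19.9% did not overlap.

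**Figure D2:**
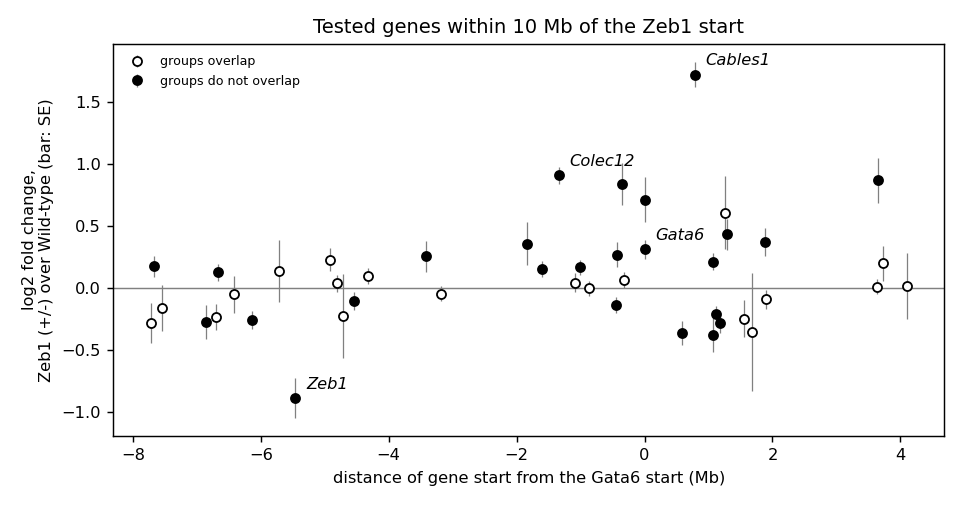
Log2 fold change (Zeb1 (+/-) over wild-type, bars SE) of the 45 tested genes within 10 Mb of the Zeb1 start, against the distance of each gene's start from that of Gata6 in Mb. Filled points are genes whose groups do not overlap; Gata6 at 0.31 lies between Colec12 at 0.91 and Cables1 at 1.72, with Zeb1 at −0.89 on the left.

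Rarb, the retinoic acid receptor beta gene, is itself a textbook target of retinoic acid through a response element in its promoter. It was at 36.5, 32.9 and 40.8 CPM in Zeb1 (+/-) replicates 1, 2 and 3, against 28.1, 29.8 and 28.5 CPM in wild-type replicates 1, 2 and 3. The wild-type libraries lay close together and all Zeb1 (+/-) libraries were above them. Its log2 fold change was 0.35 ± 0.09 (SE; 95% confidence interval 0.15 to 0.55; edgeR adjusted p = 0.125), and it passed with no low-count filter (adjusted p = 0.0151) and with DESeq2 (adjusted p = 0.0473), in a range of 0.0151 to 0.513 over 15 other settings. With the structural-RNA class in the model it was 0.37 and with the B cell mean 0.27 on the log2 scale, with no call in either. In the GENCODE M21 models 38.4% of the exonic bases of Rarb overlap exons on the opposite strand, of the topoisomerase gene Top2b and of Gm48162 together. Top2b was at 145, 150.3 and 147 CPM in Zeb1 (+/-) replicates 1, 2 and 3 and at 146, 123 and 140 CPM in wild-type replicates 1, 2 and 3, so its groups overlapped (log2 fold change 0.11). The library kit was stranded, but the strand setting of the counting is not given, so the part of Top2b reads in the Rarb count was not tested.

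The RefSeq promoter table for GRCm38.p6 held 1 start for Rarb, on the minus strand of chromosome 14. The 100 bases before it (chr14:16575477-16575576) are shown because they hold a DR5, the classical retinoic acid response element, in capitals. It is a direct repeat with NNNNN between its half-sites, each of which could read AGGTCA, or as a variant AGTTCA, or with a first G instead GGGTCA, or finally GGTTCA, and both strands were searched. The match spans bases 53 to 37 before the start and overlaps no other motif searched.
Rarb: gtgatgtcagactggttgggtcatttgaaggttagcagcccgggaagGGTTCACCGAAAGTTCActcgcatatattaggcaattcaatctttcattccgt

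A DR5 was present in the 250 bases before the start in 29 of 32851 windows of the table (0.0883%), which belong to 28 genes. Of these genes 5 passed the low-count filter and 0 were called by edgeR. Cyp26a1, which breaks down retinoic acid and is another textbook target, was at 20.4, 7.94 and 4.93 CPM in Zeb1 (+/-) replicates 1, 2 and 3, against 2.52, 5.33 and 9.19 CPM in wild-type replicates 1, 2 and 3. Its groups overlapped widely (log2 fold change 0.96 ± 0.55, SE; edgeR adjusted p = 0.449). The cytokine gene Tnfsf13b, which encodes BAFF, had a log2 fold change of 0.19, Cfap45 of 0.40 and the biliverdin reductase gene Blvrb of −0.07.

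Rara, the retinoic acid receptor alpha gene, was at 75.0, 74.3 and 84.1 CPM in Zeb1 (+/-) replicates 1, 2 and 3, against 99.5, 103 and 69.8 CPM in wild-type replicates 1, 2 and 3. Wild-type replicate 3 was the lowest of all 6 libraries, while wild-type replicates 1 and 2 were the highest. This gave a log2 fold change of −0.23 ± 0.13 (SE; 95% confidence interval −0.53 to 0.07; edgeR adjusted p = 0.467). The direction turned with the structural-RNA class of the library as a term, to 0.16, with wild-type replicate 3 alone against the Zeb1 (+/-) libraries. It was −0.38 without wild-type replicate 3 and −0.68 with the B cell mean in the model (adjusted p = 0.0616, in a range up to 0.851 over 15 other settings), with no call in either.

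Rarg, the retinoic acid receptor gamma gene, was at 161, 145 and 150.4 CPM in Zeb1 (+/-) replicates 1, 2 and 3, against 139, 178 and 157 CPM in wild-type replicates 1, 2 and 3. The Zeb1 (+/-) libraries all fell inside the wild-type range. The log2 fold change was −0.06 (95% confidence interval −0.27 to 0.15; edgeR adjusted p = 0.815), and 0.04 without wild-type replicate 2.

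Rxra, the main partner receptor in myeloid cells, was at 175, 191 and 207 CPM in Zeb1 (+/-) replicates 1, 2 and 3, against 212, 239 and 181 CPM in wild-type replicates 1, 2 and 3. As for Rara, wild-type replicates 1 and 2 were highest and wild-type replicate 3 lay among the Zeb1 (+/-) libraries. The difference on the log2 scale was −0.14 ± 0.10 (SE; 95% confidence interval −0.38 to 0.09; edgeR adjusted p = 0.561). With the structural-RNA class as a term it was 0.07, and with the B cell mean in the model −0.45, with no call in either.

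Rxrb, the broadly expressed partner receptor, was at 57.5, 54.5 and 55.0 CPM in Zeb1 (+/-) replicates 1, 2 and 3, against 57.3, 58.0 and 55.0 CPM in wild-type replicates 1, 2 and 3. The log2 fold change was −0.03 (95% confidence interval −0.17 to 0.11; edgeR adjusted p = 0.844), and 0.01 with the structural-RNA class as a term.

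Pparg was scarce. It had 22, 70 and 48 counts in Zeb1 (+/-) replicates 1, 2 and 3 and 78, 51 and 52 counts in wild-type replicates 1, 2 and 3, or 1.23, 1.65 and 1.46 CPM in Zeb1 (+/-) against 2.34, 1.81 and 2.76 CPM in wild-type. The highest Zeb1 (+/-) library and the lowest wild-type library lay close together. Its log2 fold change was −0.63 ± 0.23 (SE; 95% confidence interval −1.14 to −0.12; edgeR adjusted p = 0.256), −0.90 with the structural-RNA class in the model and −0.28 with the B cell mean there, with no call in either.

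**Figure D3:**
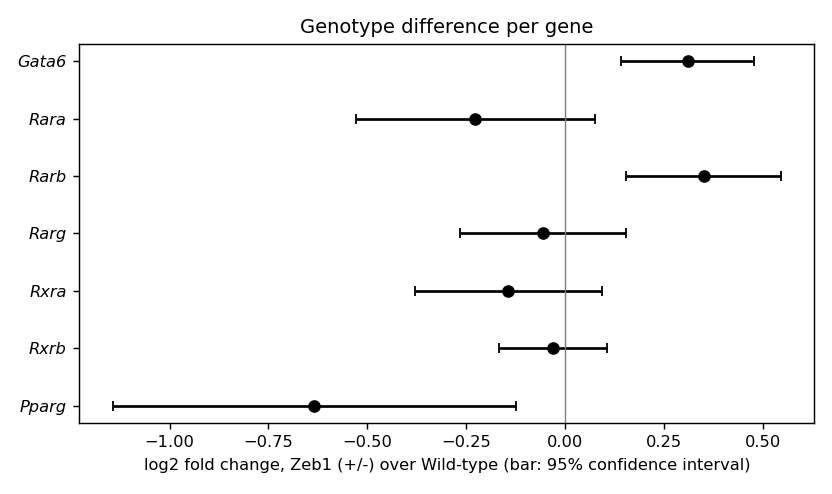
Log2 fold change of each gene (Zeb1 (+/-) over wild-type) with its 95% confidence interval from edgeR, before adjustment over genes. The intervals of Gata6, Rarb and Pparg lie to one side of 0 and those of the other 4 genes span it.

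Levels between genes were compared per length. Per kb of annotated exon and over all 6 libraries, Rxra averaged 36.7 ± 4.31 CPM per kb and Rarg 36.4 ± 3.24 CPM per kb (SD over libraries), and their ranges overlapped. Rara (19.3 ± 3.23 CPM per kb), Gata6 (17.7 ± 2.27 CPM per kb) and Rxrb (14.2 ± 0.388 CPM per kb) came next, each overlapping its neighbour in this order. Rarb (6.22 ± 0.959 CPM per kb) and Pparg (0.636 ± 0.194 CPM per kb) followed, each below the gene before it in every library. By level per kb Rxra lay at percentile 91.9 of the tested genes, Gata6 at 82.5, Rarb at 58.4 and Pparg at 15.9. With the longest annotated transcript as the length, Rarg stood above Rxra (52.6 and 40.9 CPM per kb) and Gata6 above Rara (30.4 and 24.9 CPM per kb).

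**Figure D4:**
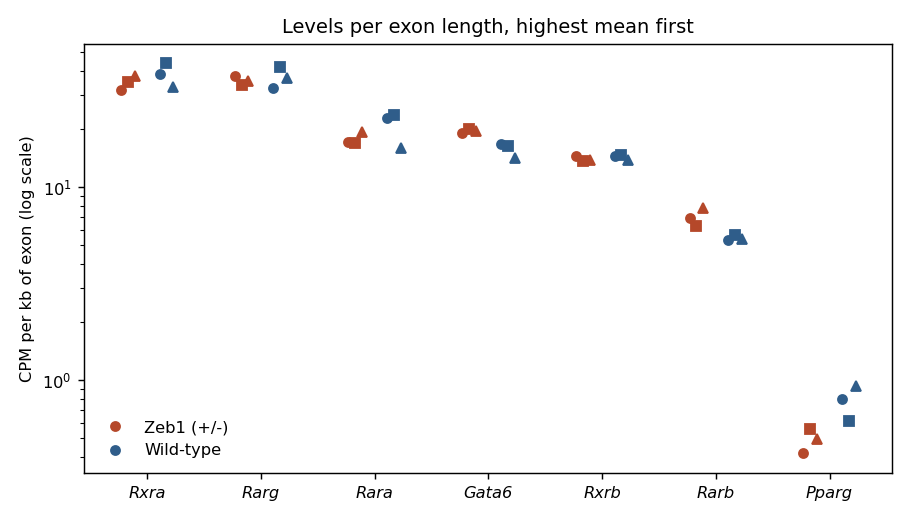
Level of each gene in CPM per kb of annotated exon (log axis) in each library, Zeb1 (+/-) left of wild-type, with symbols for replicates 1 (circle), 2 (square) and 3 (triangle). Rxra and Rarg are highest and overlap, and Pparg lies below every other gene.

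Within the RAR genes, summed per kb, Rarb made up 11.2, 10.9 and 12.4% in Zeb1 (+/-) replicates 1, 2 and 3, against 8.77, 7.95 and 9.29% in wild-type replicates 1, 2 and 3. Rarg was the largest part in every library, at 59.0 ± 2.23% in Zeb1 (+/-) and 58.6 ± 4.75% in wild-type, with Rara at 29.5 ± 1.597% in Zeb1 (+/-) and 32.7 ± 5.02% in wild-type. The RAR sum was 60.5 ± 2.77 CPM per kb in Zeb1 (+/-) and 63.4 ± 6.89 CPM per kb in wild-type, and the RXR sum 48.9 ± 2.57 CPM per kb in Zeb1 (+/-) and 52.9 ± 5.69 CPM per kb in wild-type. The share of Rarb did not overlap between the groups and the other quantities did.

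ZEB1 binds CAGGTG, read as CACCTG on the other strand. It was found in the 250 bases before the start in 3 of 14 RefSeq windows of the 6 receptor genes (21.4%), against 17.2% of all windows. The 3 stretches are shown because they are the places where this motif of the targeted factor occurs before a receptor gene, with the motif in capitals. They lie at chr11:98939584-98939623 on the plus strand, chr15:102246711-102246750 on the minus strand and chr6:115362099-115362138 on the plus strand of GRCm38.p6.
Rara: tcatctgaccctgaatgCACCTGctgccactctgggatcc
Rarg: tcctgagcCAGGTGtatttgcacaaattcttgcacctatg
Pparg: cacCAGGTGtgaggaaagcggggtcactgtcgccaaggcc
The groups of Rara and Rarg overlapped and Pparg was lower without passing, and none of the windows of Rarb, Rxra or Rxrb held the motif. A GATA motif (GATAA or else GATAG, with A or T before it, on either strand) was found in 1 of the 14 windows, of Rarg, against 26.5% of all windows.

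Genes linked to Gata6 in cavity macrophages, by loss of the factor or as markers of the cells that need it, were followed beside it. Of 20 listed and tested genes 0 were called by edgeR or limma-voom. DESeq2 called 5, all higher, where it called 109 of the 12940 tested genes higher. An unadjusted p under 0.05 was reached by 9, against 14.6% of all tested genes. A log2 fold change above 0 was found for 18, as for 6454 of the 12940 tested genes. The median was 0.22, against −0.00038 over all tested genes. The 5 were Arg1, Aspa, Ltbp1, Icam2 and Garnl3, of which Icam2 and Garnl3 are named after their values were seen. Groups did not overlap for 7 of the 20, all higher, where 9.6% of all tested genes were higher without overlap. Arg1, the arginase that makes ornithine, was at 161, 174 and 233 CPM in Zeb1 (+/-) replicates 1, 2 and 3, against 98.2, 82.1 and 126 CPM in wild-type replicates 1, 2 and 3 (log2 fold change 0.89, edgeR adjusted p = 0.0649). Aspa, the aspartoacylase known to depend on Gata6, averaged 72.6 ± 14.1 CPM in Zeb1 (+/-) and 49.2 ± 8.24 CPM in wild-type (log2 fold change 0.57, edgeR adjusted p = 0.159). Ltbp1, which holds latent TGF-beta in the matrix, had a log2 fold change of 0.27, and the ligand gene Tgfb2 one of 0.25. Alox15, the lipoxygenase of resident macrophages, was at 8855 ± 567 CPM in Zeb1 (+/-) and 8063 ± 304 CPM in wild-type, with overlapping groups. Thbs1 and Timd4 were at −0.10 and −0.04 on the log2 scale. Without wild-type replicate 3 the median was 0.19 and with the structural-RNA class as a term 0.25. The small cavity macrophage and B cell markers that were lower beside this list are given above, and their part in it was not tested.

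Other GATA factors were almost silent. Gata4 had no count in any library, and Gata2 averaged 0.0259 CPM in Zeb1 (+/-) and 0.0531 CPM in wild-type. Of the 7 genes listed for the GATA family and its cofactors only Zfpm1, which encodes the cofactor FOG1, was tested (log2 fold change −0.08).

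Of 23 genes listed for the uptake, synthesis and breakdown of retinoids 13 were tested, and the median log2 fold change was 0.11. By edgeR 1 rose and 0 fell, where 0.155% of all tested genes were higher and 0.433% lower. Groups did not overlap for 6 of the 13, 3 higher and 3 lower, against 19.9% of all tested genes. An unadjusted p under 0.05 was reached by 4, against 14.6% of all tested genes. Lpl, the lipoprotein lipase that frees retinyl esters and fatty acids from lipoproteins, was at 1042, 1230 and 1424 CPM in Zeb1 (+/-) replicates 1, 2 and 3, against 775, 616 and 710.1 CPM in wild-type replicates 1, 2 and 3. It rose by 0.81 ± 0.12 on the log2 scale (SE; edgeR adjusted p = 0.0283). The call was lost without Zeb1 (+/-) replicate 2 (adjusted p = 0.128), without wild-type replicate 2 (0.15) and without wild-type replicate 3 (0.0568), with log2 fold changes of 0.70 to 0.93 over the fits with 1 library left out. It was also lost with the replicate number as a block, with the structural-RNA class in the model and with the B cell mean there (log2 fold changes 0.81, 0.795 and 0.77), in a range of adjusted p from 2.73e-09 to 0.231 under 15 alternatives. Aldh1a2, which makes retinoic acid from retinal, was at 42.9, 39.1 and 39.0 CPM in Zeb1 (+/-) replicates 1, 2 and 3, against 48.0, 45.2 and 50.8 CPM in wild-type replicates 1, 2 and 3. All Zeb1 (+/-) values were below all wild-type values (log2 fold change −0.25, edgeR adjusted p = 0.169). Mesothelial and stromal cells also express Aldh1a2 and Gata6. Their 17 listed markers summed to 0.558 to 0.914 CPM in Zeb1 (+/-) and 0.797 to 2.38 CPM in wild-type, with Wt1 and Msln at 0 in every Zeb1 (+/-) library and Pdgfra at 0 in all 6, and the part of such cells in these values was not tested. Rdh10, which makes retinal, was at 11.2 CPM in Zeb1 (+/-) and 9.79 CPM in wild-type. Dhrs3, which turns retinal back to retinol, was at 415 ± 78.4 CPM in Zeb1 (+/-) and 355 ± 60.1 CPM in wild-type. The retinoic acid binding protein gene Crabp2 had no count in any library. Aldh1a1 had none in Zeb1 (+/-) and averaged 0.0555 CPM in wild-type.

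Of 15 listed retinoic acid targets, Rarb among them, 9 were tested, with 0 called by edgeR or limma-voom and 1 (Rarb) by DESeq2. An unadjusted p under 0.05 was reached by 2, against 14.6% of all tested genes. On the log2 scale 5 were above 0 and 4 below, and the median log2 fold change was 0.01. Tgm2, the tissue transglutaminase, was at 15.8 ± 4.69 CPM in Zeb1 (+/-) and 19.5 ± 4.43 CPM in wild-type. Asb2 was at 0.0834 CPM in Zeb1 (+/-) and 0.0891 CPM in wild-type.

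Of 18 genes listed for PPAR gamma and RXR, 17 were tested, and by edgeR 1 rose (Lpl, above) and 0 fell. Over all tested genes 0.155% were higher and 0.433% lower by edgeR. DESeq2 called 3 higher (Lpl, Fabp4 and Fabp5) and 1 lower (Abca1), where it called 109 of all tested genes higher and 242 lower. The median log2 fold change was 0.17, and −0.12 with the structural-RNA class as a term. Groups did not overlap for 7, 6 of them higher, where 19.9% of all tested genes did not overlap and 9.6% were higher. Fabp4, the fatty acid binding protein, was at 236, 355 and 272 CPM in Zeb1 (+/-) replicates 1, 2 and 3, against 184, 184.5 and 166 CPM in wild-type replicates 1, 2 and 3 (log2 fold change 0.69, edgeR adjusted p = 0.0649). Abca1, the cholesterol exporter, was at 175, 126.9 and 158 CPM in Zeb1 (+/-) replicates 1, 2 and 3, against 206, 227.5 and 230.2 CPM in wild-type replicates 1, 2 and 3 (log2 fold change −0.53, edgeR adjusted p = 0.0832). Fabp4 and Abca1 thus lay on opposite sides, each without overlap. Cd36, the fatty acid receptor, overlapped (log2 fold change −0.03), as did the lipid droplet gene Plin2 (0.29).

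None of 22 tested other nuclear receptor genes, of 42 listed, was called by edgeR, DESeq2 or limma-voom. Of the 22, 3 had an unadjusted p under 0.05 and 4 did not overlap, against 14.6% and 19.9% of all tested genes. Their median log2 fold change was −0.13. Rxrg, the remaining RXR gene, was at 3.63, 3.64 and 4.90 CPM in Zeb1 (+/-) replicates 1, 2 and 3, against 3.06, 2.34 and 2.66 CPM in wild-type replicates 1, 2 and 3. Its groups did not overlap (log2 fold change 0.59, edgeR adjusted p = 0.203). Ppard, the PPAR delta gene, was at 32.2 ± 1.65 CPM in Zeb1 (+/-) and 37.1 ± 4.63 CPM in wild-type. The oxysterol receptor Nr1h3 (log2 fold change −0.13), the glucocorticoid receptor Nr3c1 (−0.06), the orphan receptor Nr4a1 (−0.28) and the vitamin D receptor Vdr (0.86) all overlapped. Vdr was scarce, at 1.23, 0.543 and 0.457 CPM in Zeb1 (+/-) replicates 1, 2 and 3. In wild-type replicates 1, 2 and 3 Vdr was at 0.421, 0.249 and 0.478 CPM. None of 20 tested coregulator genes was called by the same 3 tools (6 with an unadjusted p under 0.05, median −0.11); the coactivator Ncoa1 was at −0.22 and the corepressor Ncor1 at −0.16. The corepressor Nrip1 was at 0.59 with overlapping groups. Of the 20 coregulator genes 16 were below 0, and groups did not overlap for 4, all lower, Ncoa1 among them. None of 17 macrophage identity factors was called by edgeR or limma-voom, and 1 (Maf) was lower by DESeq2 (4 with an unadjusted p under 0.05, median −0.12). Of the 17, 12 were below 0. Groups did not overlap for 3, all lower, Maf and Zeb2 among them, where 10.3% of all tested genes were lower without overlap. Maf was at −0.45, Klf4 at −0.12 and Bhlhe40 at 0.0096. The Zeb1 paralogue Zeb2 was at −0.12 with 514 ± 30.9 CPM in Zeb1 (+/-) and 558 ± 0.721 CPM in wild-type.

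The genes whose pattern lay nearest to that of Gata6 were ranked by the root mean square difference of mean-centred log2 CPM over the 6 libraries, among 8322 genes with a mean of at least 10 CPM. They were Prps1 (0.0286), Hn1 (0.0358), S100a10 (0.0426), Rpn2 (0.0490) and Rab27a (0.0539), and 214 genes lay within 0.1. The median distance over all genes compared was 0.196, beside 0.175 for a flat profile. For Pparg the nearest were the ficolin gene Fcna (0.109), Cyp4f18 (0.152), Rilpl2 (0.164), Fam107b (0.182) and H2-DMb2 (0.189), with 0 genes within 0.1. The median distance from Pparg was 0.395, beside 0.380 for a flat profile. By edgeR Fcna (log2 fold change −0.64, adjusted p = 0.0482) and Cyp4f18 (−0.77, adjusted p = 0.0246) were lower. Both calls were lost with the replicate block and with the B cell mean. They were also lost without Zeb1 (+/-) replicate 1, Zeb1 (+/-) replicate 2 or wild-type replicate 2.

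**Figure D5:**
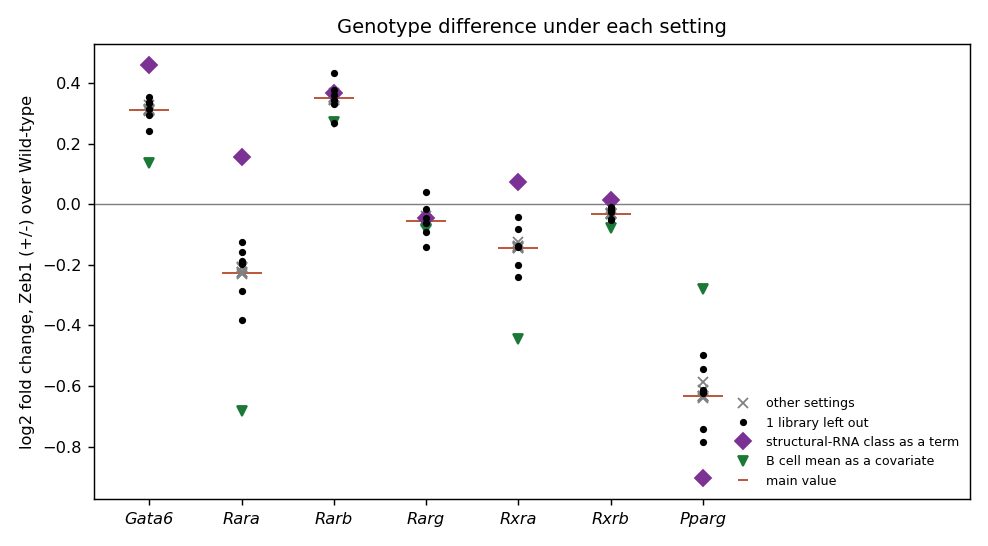
Log2 fold change of each gene (Zeb1 (+/-) over wild-type) under the main setting (line) and 15 others, with the structural-RNA class as a term (diamonds) and the B cell mean in the model (triangles) marked. Gata6 and Rarb stay above 0 and Pparg below 0 throughout, while Rara runs from −0.68 to 0.16.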

How the data were processed

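The deposited values are expected counts, 1 column for each library. STAR, RSEM and edgeR and the build GRCm38 are named in the submitters' processing notes, without version or role. All values were whole numbers, so the expected counts appear to have been rounded. Libraries were made from RNAzol extracts with a stranded TruSeq mRNA kit, per the labels' protocols; annotation release and strand setting are not given in the sources used here. Columns were mapped by the identifier in each sample's description (0 left unmapped), and 122 duplicate symbols were named by identifier. Positions and exon lengths come from GENCODE M21 (GRCm38), matched for 99.3% of gene identifiers without their version; promoter sequences come from RefSeq on GRCm38.p6, with a window for all 6 receptor genes.

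Genes were kept by filterByExpr (minimum count 10, minimum total count 15), scaled by TMM (factors 0.976 to 1.01) and tested with the quasi-likelihood method of edgeR 4.0.16 in R 4.3.3. P-values were adjusted by Benjamini-Hochberg over all 12940 tested genes. The SE is the log2 fold change divided by the square root of F, and intervals use the t distribution. CPM uses TMM-scaled library sizes, and 1 CPM stands for 17.9 to 42.3 counts. Alternatives were RLE factors, other filters, the replicate number as a block, DESeq2 1.42.0, limma-voom (limma 3.58.1), robust moderation, the structural-RNA class (limit 20 CPM), the B cell mean, and each library left out. Their use for the list counts and for single genes outside the 7 was chosen after seeing the data.

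The genes and lists were chosen with earlier results of these data known. Named genes are the 7, those marked in each list for their role, and members past the threshold (or, failing any, the smallest p). The 5 nearest in pattern to Gata6 and Pparg and the tested neighbours within 1 Mb of Gata6 were also named. Further genes, among them Adgre1, Csf1r, Lyz2, Cd3e, Thbs1, Timd4, Cyp26a1, Fabp5, Wt1, Msln and Pdgfra, fall outside this rule and were not set in advance. Lists were described by counts and medians, with no set test. The smallest p belonged to Mrc1 among core macrophage markers and to Fcrls among small cavity macrophage and monocyte markers. It belonged to Blk, Cd2, Ccr3 and Dpp4 for B, T and NK, granulocyte and mast, and dendritic cells, and to Junb among immediate-early genes. After Fcrls (log2 fold change −0.65) came Ccr2 (−0.62), H2-Eb1 (−0.54) and Retnla (−0.61), all called lower by edgeR. Granulocyte and mast cell markers summed to 4.97 to 7.68 CPM in Zeb1 (+/-) and 3.55 to 7.01 CPM in wild-type. Dendritic cell markers summed to 15.4 to 21.4 CPM in Zeb1 (+/-) and 19.3 to 29.1 CPM in wild-type. Immediate-early genes summed to 1439 to 2580 CPM in Zeb1 (+/-) and 1843 to 2331 CPM in wild-type.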

Additional observations from a re-analysis of the deposited data

How the results depend on the processing

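Of 105 values of the 7 genes under other settings, 97 kept their direction and their side of the threshold, 4 passed it and 4 turned direction. Both Gata6 and Rarb passed with no low-count filter (log2 fold changes 0.33 and 0.37) and with DESeq2 (0.31 and 0.35), so 2 of the 7 genes were called in each, against 0 otherwise. With the structural-RNA class as a term Rara, Rxra and Rxrb turned to 0.16, 0.075 and 0.015. With 1 library left out Rarg ran from −0.14 to 0.040, above 0 only without wild-type replicate 2. The cause was not tested. The number of changed genes over the whole table was 20 higher and 56 lower, and it became 207 and 315 with no low-count filter, 109 and 242 with DESeq2, 4 and 27 with the structural-RNA class and 4 and 0 with the B cell mean. With 1 library left out it ran from 4 to 36 higher and from 1 to 91 lower, lowest without wild-type replicate 2 and highest without Zeb1 (+/-) replicate 3. Because B cell marker sums did not overlap between genotypes, the fit with the B cell mean cannot fully separate these markers from genotype.

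With the replicate number as a block 6 genes were higher and 9 lower, and 0 of the 7 passed. Deviations of same-numbered libraries correlated at −0.25, −0.03 and −0.17, and the labels do not say that numbers pair the genotypes, so the block was not used. With the longest transcript as the length Rarg, Rara, Gata6, Rxrb, Rarb and Pparg were at 52.6, 24.9, 30.4, 21.4, 10.5 and 0.883 CPM per kb. Depth limits Pparg most, which had as few as 22 counts in a library.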
